A study of Homo sapiens with 10 samples.

Results

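Expression of 33 genes that build sterols and fatty acids, out of 60554 genes listed, was followed in Caco-2 cells in which the long non-coding RNA LHFPL3-AS2 was targeted with CRISPR interference. The genes were taken by their symbols. They comprised 7 enzymes of the mevalonate steps (ACAT2, HMGCS1, MVK, PMVK, MVD, IDI1 and FDPS), 11 enzymes that lead from farnesyl diphosphate by way of squalene to cholesterol (FDFT1, SQLE, LSS, CYP51A1, TM7SF2, MSMO1, NSDHL, HSD17B7, EBP, SC5D and DHCR7), 6 genes for SREBP regulators and a sterol carrier (SREBF1, SREBF2, SCAP, INSIG1, INSIG2 and STARD4) and 9 enzymes of fatty acid synthesis, elongation and desaturation (ACLY, ACSS2, ACACA, FASN, SCD, ELOVL5, ELOVL6, FADS1 and FADS2). The 18 enzymes of the mevalonate and later steps are called the sterol branch, and the last 9 genes the fatty acid branch.

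Caco-2, a line from a human colon carcinoma, takes on features of enterocytes in culture and was here grown in serum-containing medium and seeded as monolayers. All cells, controls included, descended from a puromycin-selected monoclonal line that expressed dCas9-KRAB, in which a Cas9 unable to cut is joined to a repressor domain. A further lentivirus, with a hygromycin resistance gene, then brought guide g1 or guide g2 against LHFPL3-AS2 under the U6 promoter (groups g1 and g2), or the empty plasmid (group gCtl), so that the control cells received no guide. There were 5 gCtl, 3 g1 and 2 g2 libraries, and the 5 libraries of g1 and g2 together are named the libraries labelled knockdown. The labels do not say whether the libraries of a group came from separate cultures, so the p-values measure the spread between these libraries, which may be technical.

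Cells make cholesterol from acetyl-CoA through mevalonate, squalene and lanosterol, and fatty acids from the same acetyl-CoA through malonyl-CoA. Both routes are under SREBP transcription factors, encoded by SREBF1 and SREBF2, which SCAP escorts from the endoplasmic reticulum to the Golgi for activation when sterols are scarce and which the INSIG proteins hold back when sterols are plentiful. Enterocytes use these products for membranes and for the lipoproteins they secrete.

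LHFPL3-AS2 itself was at 1.73, 0.84, 3.73, 1.73 and 3.12 RPM (counts scaled to the library total) in the gCtl libraries, at 3.07, 3.95 and 2.03 RPM in g1 and at 2.16 and 6.01 RPM in g2, on 4.39 to 44.0 estimated counts per library. The groups overlapped. By these few counts, neither the libraries labelled g1 nor those labelled g2 had less of the RNA they were meant to repress. The paper reports that qPCR found LHFPL3-AS2 reduced with both guides, relative to gCtl. Totals ran from 3838803 to 5674360 estimated counts in gCtl and from 4649985 to 8730468 in g1, and were 6130698 and 7325087 in g2. Libraries gCtl 3, g1 3 and g2 2 stood apart from the other 7, with 24595 to 25154 genes with a count against 22603 to 23717, and with 77.0% to 77.2% of transcript estimates not whole against 75.0% to 76.0%. Of 10 enterocyte-like markers, 8 were above 3 RPM in every gCtl and every g1 library and 9 in both g2 libraries. Their summed levels were 1827 to 2503 RPM in gCtl, 1835 to 2282 in g1 and 1978 to 2019 in g2. SI, the brush border sucrase-isomaltase, was listed at 0 in 4 of 5 gCtl libraries and reached 2.86 RPM at most. Of the 10, only SI did not overlap, at 0 to 0.36 RPM in gCtl and 0.96 to 2.86 RPM in the guide libraries. Of 6 fibroblast markers, 2 were above 3 RPM in every gCtl library, 1 in every g1 library and 0 in both g2 libraries. They summed to 17.6 to 38.5 RPM in gCtl, 9.13 to 19.6 in g1 and 6.86 to 10.6 in g2. Of these 6, only PDGFRA did not overlap, at 11.4 to 29.8 RPM in gCtl and 1.15 to 10.1 RPM in the guide libraries. COL1A1 overlapped (3.1 to 6.9 RPM in gCtl, 2.8 to 8.6 in the guide libraries), as did COL1A2 (0 to 2.51 and 1.5 to 2.32). COL3A1, DCN and LUM overlapped too, at 2.86 RPM or less. Of 6 leukocyte markers, 1 (LYZ) was above 3 RPM in every library. The sums were 13.8 to 24.3 RPM in gCtl, 13.4 to 31.0 in g1 and 20.7 to 22.0 in g2. CD14 did not overlap, at 2.47 to 4 RPM in gCtl and 0.27 to 1.56 RPM in the guide libraries. The other leukocyte markers did not separate the groups. The part of these differences in the results was not tested, and in bulk RNA fewer cells of a type and less RNA per cell cannot be told apart.

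Of the 32 members abundant enough to test, 10 were lower and 1 was higher in the libraries labelled knockdown than in gCtl, with FADS2 left out at 0.50 to 2.18 CPM (counts scaled to the library total after TMM normalization). Calls needed a Benjamini-Hochberg adjusted p no higher than 0.05 in edgeR's quasi-likelihood test together with a change of 1.5-fold or more. By the same rule 19.2% of all 11640 tested genes were called, 11% as lower and 8.14% as higher. The lower members were SCAP, FDPS, DHCR7, EBP, ACLY, PMVK, LSS, FASN, ACACA and FDFT1, and the higher one was HMGCS1. The median log2 fold change was -0.23 over the 32 members and 0.02 over all tested genes. In 6 members (SCAP, DHCR7, EBP, ACLY, ACACA and FADS1) every library labelled knockdown lay below every gCtl library, which was the case for 8.33% of all tested genes, and in 0 members did every one lie above, against 7.13%.

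Each guide was then compared with the same gCtl libraries, so that the g1 and g2 values are not independent of each other. With g1, 7 members were lower (SCAP, FDPS, DHCR7, EBP, MVD, FADS1 and ACLY) and 0 were higher, where 16.8% of all tested genes were called, 9.94% as lower and 6.81% as higher. With g2, 11 were lower (SCAP, FDPS, DHCR7, EBP, FASN, LSS, PMVK, ACLY, SCD, SQLE and ACACA) and HMGCS1 was higher, where 23.7% of all tested genes were called, 13% as lower and 10.7% as higher. The median over the 32 members was -0.32 with g1 and -0.17 with g2, beside 0.01 and -0.00165 over all tested genes. SCAP, FDPS, DHCR7, EBP and ACLY were the members called lower with each guide. How many of all tested genes were called lower with each guide was not counted, so these members are given without that share. All g1 libraries lay below all gCtl libraries in 8 members and above them in 0, against 13.5% and 13.1% of all tested genes, and the g2 libraries lay below in 10 and above in 3, against 19.7% and 18.2%. The balance over all genes depended on the scaling: with library totals in place of TMM, the lower genes were 69.4% in place of 57.5% of those called over both guides, 73.3% in place of 54.9% with g2, and 83.4% in place of 68.6% between g2 and g1, and the median of all tested genes with g2 shifted to -0.16.

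**Figure D1:**
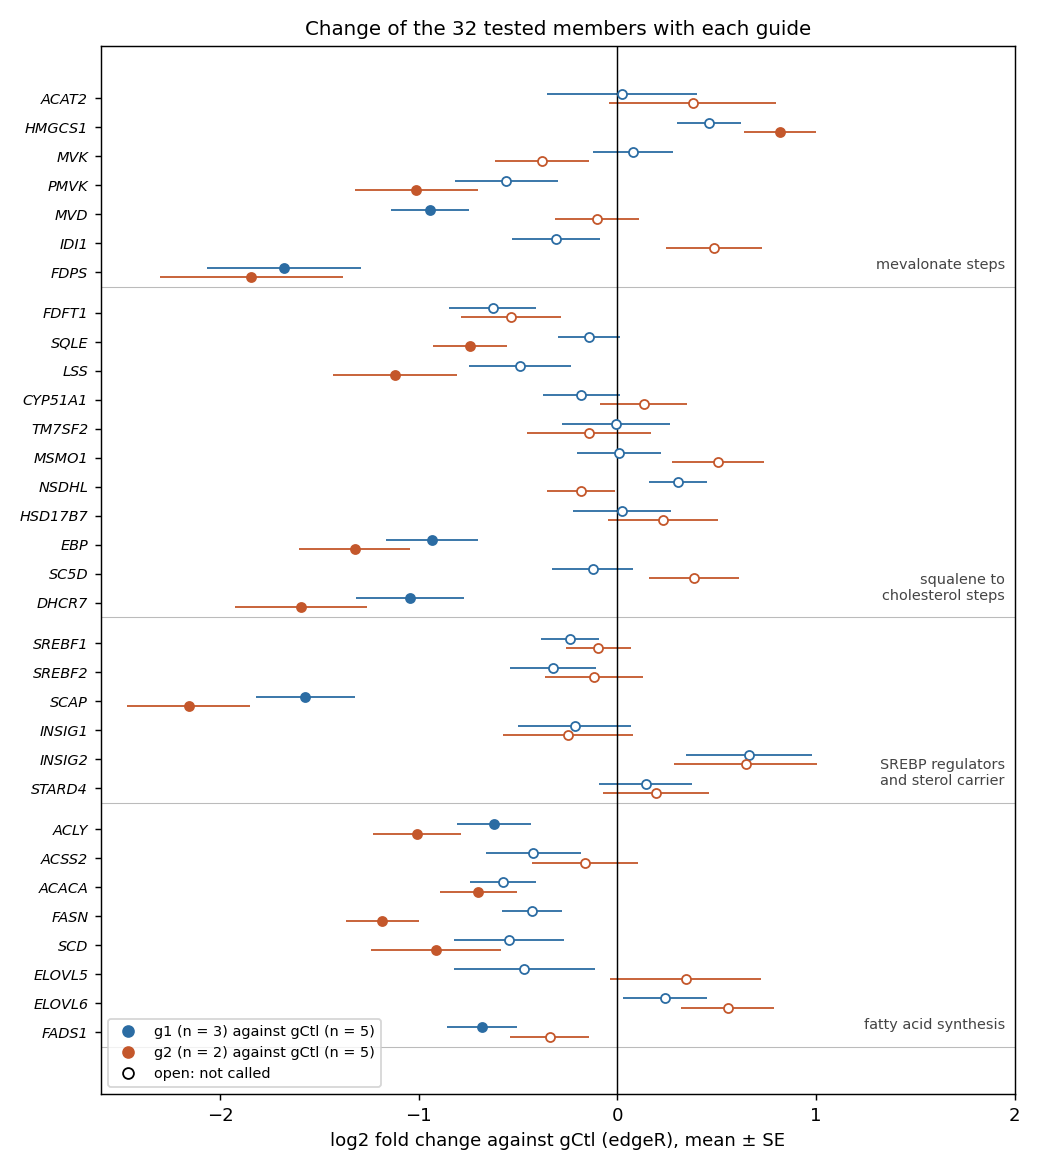
Log2 fold change against gCtl (x axis, with SE) of the 32 tested members, grouped by step, for g1 (n = 3 libraries, blue) and g2 (n = 2, orange) against the same 5 gCtl libraries. Filled points are called. FDPS lies farthest left with g1, at -1.68, and SCAP with g2, at -2.16, and HMGCS1 is the filled point to the right of 0, at 0.82 with g2.

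Promoters are shown for the 5 members called lower with each guide, a choice made by those calls, which share the gCtl libraries. Each is given as the 250 bases before a RefSeq transcription start, read 5′ to 3′ on the gene's strand (GRCh38.p14). Capitals mark matches, on either strand, to the sterol regulatory element TCACNCCAC, the E-box CACGTG, the E-box-like SREBP site TCACNTGA, which can overlap an E-box, and the CCAAT box, which is bound by NF-Y and reads ATTGG on the other strand. ACLY and DHCR7 have a further window each, which is not shown.
SCAP, chr3:47475942-47476191, minus strand: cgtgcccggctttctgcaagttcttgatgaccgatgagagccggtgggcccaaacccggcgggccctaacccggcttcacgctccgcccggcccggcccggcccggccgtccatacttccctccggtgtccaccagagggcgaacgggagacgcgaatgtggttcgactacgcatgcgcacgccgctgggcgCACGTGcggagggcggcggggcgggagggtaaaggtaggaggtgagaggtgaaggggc
FDPS, chr1:155308616-155308865, plus strand: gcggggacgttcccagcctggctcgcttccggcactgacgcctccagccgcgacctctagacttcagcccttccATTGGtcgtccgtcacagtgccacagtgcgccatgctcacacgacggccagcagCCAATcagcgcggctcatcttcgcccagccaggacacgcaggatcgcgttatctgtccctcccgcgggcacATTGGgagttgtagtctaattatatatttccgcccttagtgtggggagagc
EBP, chrX:48521558-48521807, plus strand: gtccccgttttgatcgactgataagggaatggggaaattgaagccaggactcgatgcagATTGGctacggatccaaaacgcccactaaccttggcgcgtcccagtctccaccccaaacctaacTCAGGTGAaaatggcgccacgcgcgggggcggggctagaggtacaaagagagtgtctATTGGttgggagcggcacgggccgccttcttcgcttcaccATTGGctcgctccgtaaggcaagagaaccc
DHCR7, chr11:71448394-71448643, minus strand: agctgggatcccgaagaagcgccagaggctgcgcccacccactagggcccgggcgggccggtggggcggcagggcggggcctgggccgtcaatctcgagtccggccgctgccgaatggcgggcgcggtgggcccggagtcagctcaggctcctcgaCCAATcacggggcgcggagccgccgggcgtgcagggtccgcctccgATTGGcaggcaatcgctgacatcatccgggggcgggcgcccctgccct
ACLY, chr17:41919023-41919272, minus strand: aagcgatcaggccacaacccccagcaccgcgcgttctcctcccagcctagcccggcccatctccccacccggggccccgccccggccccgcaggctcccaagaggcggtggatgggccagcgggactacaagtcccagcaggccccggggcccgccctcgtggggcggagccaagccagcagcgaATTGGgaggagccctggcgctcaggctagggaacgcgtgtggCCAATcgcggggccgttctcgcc
The SCAP window holds an E-box 58 bases before the start and no CCAAT box. The FDPS and EBP windows hold 3 CCAAT boxes each, and the DHCR7 and ACLY windows hold 2 each. The EBP window also holds an E-box-like SREBP site, as TCAGGTGA, 127 bases before the start. None of the 5 holds the sterol regulatory element as spelled here.

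Of the 33 members, 29 had an entry in the promoter table, with 40 windows in all, and FASN, SQLE, FDFT1 and ACAT2 had none. CCAAT boxes were in 62.5% of the 40 windows and in 32.01% of the 35116 windows of all genes, with 81.8% among the 11 windows of the steps from squalene to cholesterol and 53.8% among the 13 of the fatty acid branch. The sterol regulatory element was in 1 of the 40 windows, that of SREBF2, as TCACCCCAC 133 bases before the start, and in 0.883% of all windows. E-boxes were in 12.5% of the member windows and in 6.34% of all windows, and the E-box-like site was in 5% and 3.20%. Windows of a gene can overlap, and a match they share is then counted in each. This was so for the E-box of SC5D and the CCAAT boxes of SC5D and ACLY. A match of letters is a description and does not show a bound site.

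Among the regulators only SCAP was called, and it was lower with each guide. SCAP (ENSG00000114650.18, GRCh38 chr3:47413694-47477126, minus strand), the escort protein of the SREBPs, stood at 19.2, 19.3, 16.2, 21.7 and 15.7 CPM in gCtl, at 7.50, 5.70 and 5.36 CPM in g1 and at 5.56 and 2.76 CPM in g2. The lowest gCtl library was at 15.7 CPM and the highest of the other 5 at 7.50, so the groups did not overlap. The level was 18.4 ± 2.47 CPM in gCtl (SD, n = 5), 6.18 ± 1.15 in g1 (n = 3) and 4.16 ± 1.98 in g2 (n = 2). This was 2.97-fold lower with g1 (log2 fold change -1.57 ± 0.25 SE, edgeR adjusted p = 0.000688) and 4.46-fold lower with g2 (-2.16 ± 0.31, adjusted p = 0.000229). The counts behind SCAP were low in the guide libraries, 19.3 in g2 2, and at least 77.1 in each gCtl library.

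The genes of the SREBPs themselves were not called. SREBF1, which encodes the SREBP-1 proteins best known for fatty acid genes, was at 35.6 ± 3.21 CPM in gCtl, 30.1 ± 1.77 in g1 and 33.2 ± 3.83 in g2, with log2 fold changes of -0.24 and -0.10. SREBF2, whose product favours sterol genes, was at 30.4 ± 4.48, 24.3 ± 4.57 and 28.2 ± 13.6 CPM (-0.33 and -0.12). For both genes the guide libraries overlapped gCtl, and the smallest adjusted p was 0.264. INSIG1 (-0.21 and -0.25), itself a sterol-responsive gene, and STARD4 (0.14 and 0.19), a carrier of cholesterol, were not called either. The INSIG1 value with g2 rested on libraries that differed, at 59.9 CPM in g2 1 and 16.7 CPM in g2 2, and without g2 1 INSIG1 would have been called lower (-1.44, adjusted p = 0.00189). INSIG2, which also retains SCAP, had the highest values of the regulators, 0.66 with g1 and 0.65 with g2, but was not called. It stood at 7.83, 6.12 and 13.4 CPM in g1 and 13.1 and 5.38 in g2, against 5.45 to 7.25 in gCtl. Of its counts, 6.18% to 57.0% were on protein-coding transcripts. With single libraries left out, INSIG2 was called higher over both guides without g2 2 (0.79, edgeR adjusted p = 0.0437).

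The mevalonate steps went both ways: in the libraries labelled knockdown 2 of 7 were lower, 1 was higher and the median log2 fold change was -0.09. HMGCS1 (ENSG00000112972.14, chr5:43289395-43313512, minus strand), the synthase that commits acetyl-CoA units to mevalonate, stood at 99.5, 84.3, 71.2, 81.4 and 91.3 CPM in gCtl, at 153, 103 and 96.9 CPM in g1 and at 160.1 and 141 CPM in g2. Both g2 libraries lay above every gCtl library, while g1 3 lay within the gCtl range. HMGCS1 was 1.76-fold higher with g2 (0.82 ± 0.18 SE, edgeR adjusted p = 0.00461) and, with g1, 1.38-fold (0.46 ± 0.16, adjusted p = 0.0566), which did not pass. Over all libraries labelled knockdown it was 1.53-fold higher (adjusted p = 0.013), and without gCtl 3, g1 1, g2 1 or g2 2 in turn this fell below the 1.5-fold minimum, at log2 fold changes of 0.52 to 0.58, as it did with library totals in place of TMM (0.52).

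PMVK, which phosphorylates mevalonate 5-phosphate, was lower with g2. It stood at 7.75, 11.4, 11.7, 9.63 and 8.27 CPM in gCtl, at 7.999, 5.06 and 6.70 CPM in g1 and at 3.94 and 5.67 CPM in g2, on 22 to 67 counts per library. Both g2 libraries lay below the gCtl range and g1 1 lay within it. The log2 fold change was -1.01 ± 0.31 with g2 (edgeR adjusted p = 0.0259), -0.56 ± 0.26 with g1 (adjusted p = 0.14, not called) and -0.72 over both guides (adjusted p = 0.0365). The g2 call was lost without gCtl 2, gCtl 3, g2 1 or g2 2 (adjusted p of 0.0510 to 0.130), and the call over both guides without gCtl 2, gCtl 3, gCtl 4, g1 2, g2 1 or g2 2 (0.0511 to 0.0960).

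MVD, the decarboxylase that forms isopentenyl diphosphate, was called lower with g1 and was not called with g2. It stood at 17.5, 16.9, 16.05, 17.1 and 14.8 CPM in gCtl, at 9.83, 7.17 and 8.52 CPM in g1 and at 16.7 and 13.96 CPM in g2. All g1 libraries lay below all others, g2 1 lay within the gCtl range and g2 2 just below it. The log2 fold change was -0.94 ± 0.20 with g1 (edgeR adjusted p = 0.0039) and -0.10 ± 0.21 with g2 (adjusted p = 0.751). The direct comparison of g2 with g1, and the transcripts behind the MVD counts, are given further on.

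FDPS, which makes farnesyl diphosphate, had the lowest log2 fold change of the members with g1 and the next to lowest, after SCAP, with g2. The gene (ENSG00000160752.14, chr1:155308748-155320666, plus strand) stood at 21.2, 38.01, 20.2, 29.1 and 6.86 CPM in gCtl, at 6.83, 7.60 and 7.18 CPM in g1 and at 7.35 and 5.52 CPM in g2. Every guide library was at 7.60 CPM or less, but gCtl 5 was at 6.86 CPM, within the range of the guide libraries, while the other 4 gCtl libraries were at 20.2 CPM or more. The log2 fold change was -1.68 ± 0.39 with g1 (edgeR adjusted p = 0.0072) and -1.84 ± 0.46 with g2 (adjusted p = 0.009), and the g2 call was lost without g2 2 (-1.64, adjusted p = 0.0960). The transcripts behind these counts are described further on, and none of them was protein-coding. The other mevalonate genes, ACAT2, MVK and IDI1, were not called, with log2 fold changes of 0.03, 0.08 and -0.31 with g1 and 0.38, -0.38 and 0.49 with g2, and IDI1 was called higher with g2 only without g2 2 (0.91, adjusted p = 0.0204).

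In the steps from squalene to cholesterol 4 of 11 genes were lower in the libraries labelled knockdown (DHCR7, EBP, LSS and FDFT1), 0 were higher and the median was -0.06. DHCR7 (ENSG00000172893.15, chr11:71428193-71452868, minus strand), the reductase of the last step to cholesterol, stood at 115, 122, 126, 118 and 89.02 CPM in gCtl, at 57.99, 67.9 and 40.6 CPM in g1 and at 58.1 and 18.03 CPM in g2. The lowest gCtl library was at 89.0 CPM and the highest guide library at 67.9, so the groups did not overlap. DHCR7 was 2.06-fold lower with g1 (-1.04 ± 0.27 SE, edgeR adjusted p = 0.0141) and 3.02-fold lower with g2 (-1.59 ± 0.33, adjusted p = 0.00309), and the g1 call was lost without g1 3 (-0.87, adjusted p = 0.0761).

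EBP (ENSG00000147155.10, chrX:48521158-48528716, plus strand), the isomerase that moves the ring double bond of the sterol, stood at 17.7, 28.1, 19.4, 25.99 and 16.7 CPM in gCtl, at 9.66, 13.9 and 10.47 CPM in g1 and at 10.04 and 7.27 CPM in g2. Here too all guide libraries lay below all gCtl libraries, at 13.9 CPM or less against 16.7 or more. Its log2 fold change was -0.93 ± 0.23 with g1 (edgeR adjusted p = 0.011) and -1.32 ± 0.28 with g2 (adjusted p = 0.00338). Without g1 1 the g1 value was -0.83 (adjusted p = 0.0548) and without g2 2 the g2 value was -1.10 (adjusted p = 0.0532), both above the threshold of 0.05.

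LSS, the cyclase that turns squalene epoxide into lanosterol, stood at 39.2, 45.5, 29.3, 42.6 and 32.9 CPM in gCtl, at 33.2, 28.5 and 19.5 CPM in g1 and at 25.3 and 9.89 CPM in g2. Both g2 libraries lay below the gCtl range, g2 2 by far, and g1 1 lay within it. Against gCtl the log2 fold change was -1.12 ± 0.31 with g2 (edgeR adjusted p = 0.0156), -0.49 ± 0.26 with g1 (adjusted p = 0.189) and -0.71 over both guides (adjusted p = 0.0496). Without g2 2 the g2 value fell to -0.58 (adjusted p = 0.210), and the call over both guides was lost without gCtl 1, gCtl 2, gCtl 3, gCtl 4, g1 3 or g2 2 (-0.79 to -0.52).

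SQLE, the epoxidase that oxidizes squalene, was lower with g2 and not with g1. It stood at 80.97, 100.4, 84.8, 81.8 and 99.9 CPM in gCtl, at 102, 74.9 and 67.3 CPM in g1 and at 57.4 and 49.9 CPM in g2. The g2 libraries lay below all others, and g1 1 was the highest library of the 10. This gave a log2 fold change of -0.74 ± 0.19 with g2 (edgeR adjusted p = 0.00878) and -0.14 ± 0.16 with g1 (adjusted p = 0.559), and the g2 call was lost without g2 2 (-0.64, adjusted p = 0.0836).

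FDFT1, squalene synthase, was called only over both guides (-0.59 ± 0.19, edgeR adjusted p = 0.0353). It stood at 103, 91.8, 58.4, 87.8 and 76.9 CPM in gCtl, at 63.8, 58.2 and 40.3 CPM in g1 and at 74.4 and 40.99 CPM in g2. The groups overlapped, since gCtl 3, the lowest control, was below g1 1 and g2 1. The call was lost without gCtl 1, gCtl 2, gCtl 4, g1 2, g1 3 or g2 2 (-0.61 to -0.50, adjusted p of 0.0513 to 0.0951). The other 6 enzymes of these steps, CYP51A1, TM7SF2, MSMO1, NSDHL, HSD17B7 and SC5D, were not called with either guide, with log2 fold changes from -0.18 to 0.30 with g1 and from -0.18 to 0.51 with g2. SC5D, the desaturase before DHCR7, would have been called higher with g2 without g2 2 (0.81, adjusted p = 0.0216), since g2 1 was at 108 CPM and g2 2 at 53.9.

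**Figure D2:**
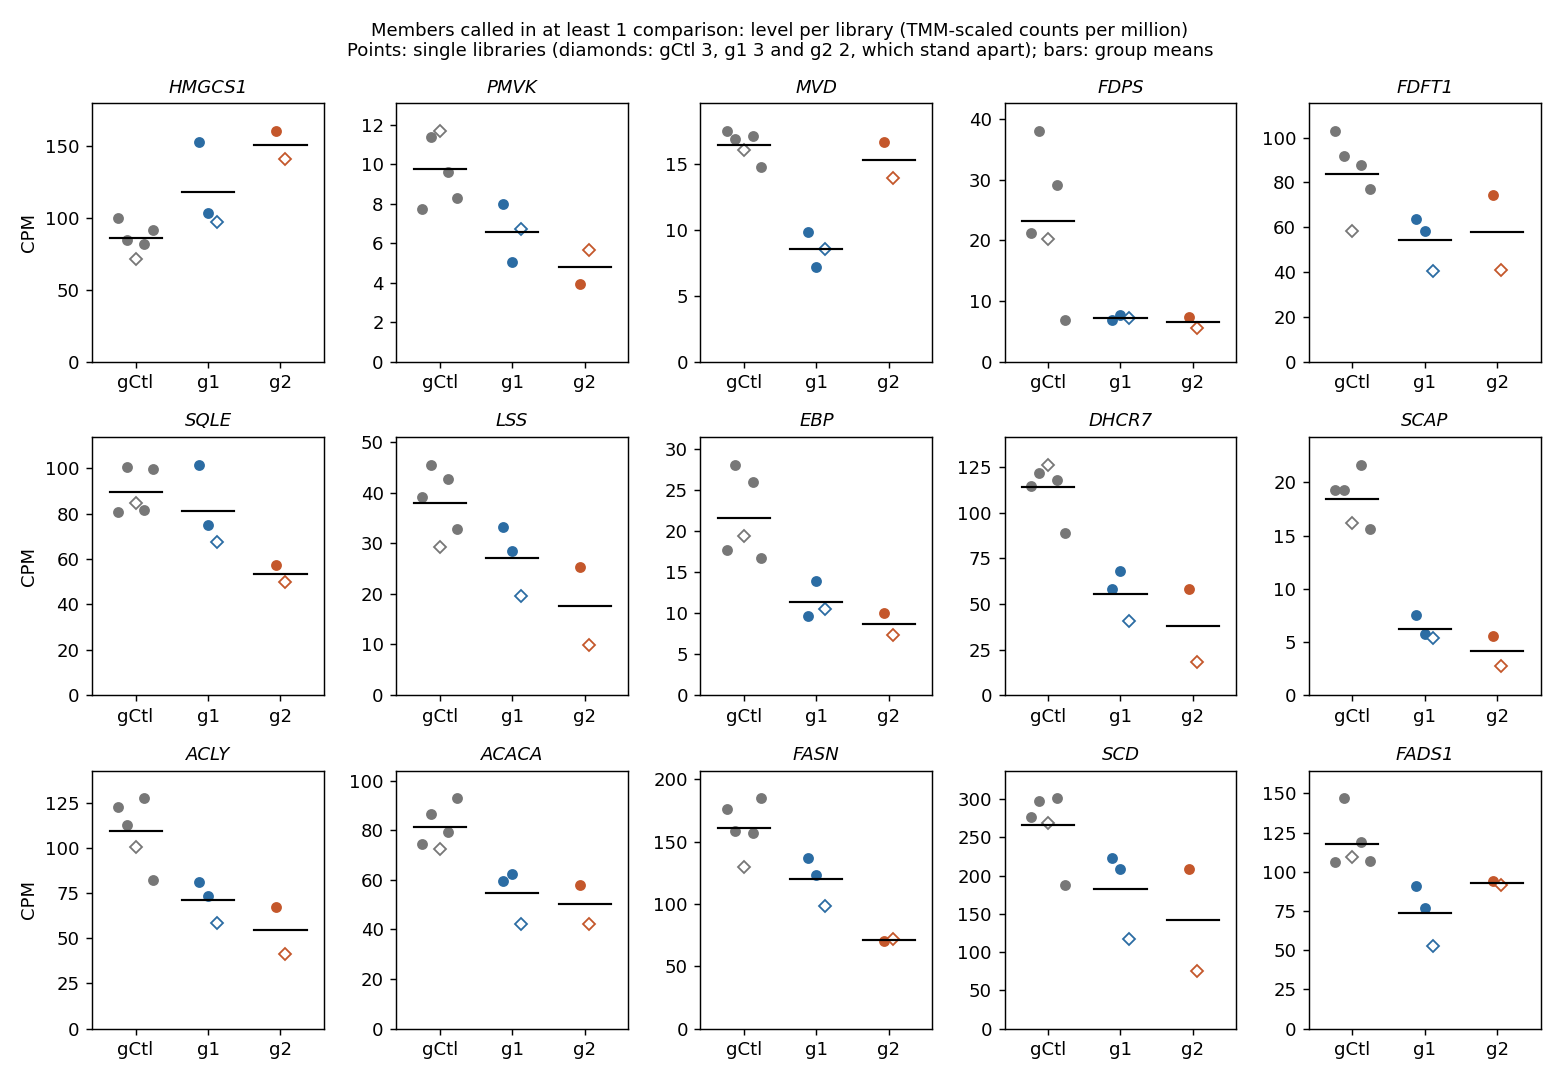
Level in CPM (y axes from 0) of the 15 members called in at least 1 comparison, per library and group, with group means as bars and with diamonds for the libraries gCtl 3, g1 3 and g2 2. SCAP, EBP, DHCR7, ACLY, ACACA and FADS1 show no overlap between gCtl and the guides, and FDPS shows gCtl 5, at 6.86 CPM, among the guide libraries.

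In the fatty acid branch 3 of 8 tested genes were lower in the libraries labelled knockdown (ACLY, FASN and ACACA) and 0 were higher, with a median of -0.58. ACLY (ENSG00000131473.16, chr17:41866908-41930542, minus strand), which releases acetyl-CoA from citrate for both branches, stood at 123, 113, 101, 128 and 82.5 CPM in gCtl, at 80.99, 73.6 and 58.7 CPM in g1 and at 67.6 and 41.1 CPM in g2. The groups did not overlap, but gCtl 5, at 82.5 CPM, and g1 1, at 81.0 CPM, were close. In the test the log2 fold change was -0.62 ± 0.19 with g1 (edgeR adjusted p = 0.0284) and -1.01 ± 0.22 with g2 (adjusted p = 0.00435). The g1 call was lost without gCtl 1, gCtl 2, gCtl 4, g1 2 or g1 3 (adjusted p of 0.0560 to 0.124) and the g2 call without g2 2 (-0.69, adjusted p = 0.0776).

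ACACA (ENSG00000278540.4, chr17:37084988-37406818, minus strand), the carboxylase that makes malonyl-CoA, stood at 74.5, 86.5, 72.4, 79.4 and 92.9 CPM in gCtl, at 59.3, 62.5 and 42.3 CPM in g1 and at 58.1 and 42.01 CPM in g2. All guide libraries lay below all gCtl libraries. The fitted log2 fold change was -0.70 ± 0.19 with g2 (edgeR adjusted p = 0.0149) and -0.57 ± 0.16 with g1 (adjusted p = 0.0226), which passed the test but not the 1.5-fold minimum. Over both guides it was -0.62 (adjusted p = 0.00733), below the minimum without gCtl 5, g1 3 or g2 2 (-0.58 to -0.56), and without g2 2 the g2 value was -0.48 (adjusted p = 0.177).

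FASN (ENSG00000169710.7, chr17:82078333-82098332, minus strand), fatty acid synthase, stood at 176, 158, 129.8, 157 and 185 CPM in gCtl, at 137, 123 and 98.4 CPM in g1 and at 69.9 and 71.8 CPM in g2. The g2 libraries were close to each other and below all others, while g1 1, at 137 CPM, lay within the gCtl range. FASN was 2.27-fold lower with g2 (-1.18 ± 0.18, edgeR adjusted p = 0.000406) and 1.35-fold with g1 (-0.43 ± 0.15, adjusted p = 0.0555), which did not pass.

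SCD, the desaturase that makes oleate, and FADS1, a desaturase of polyunsaturated fatty acids, were each called with a single guide. SCD stood at 277, 298, 269, 301 and 188 CPM in gCtl, at 223, 209 and 117 CPM in g1 and at 209 and 74.9 CPM in g2. Its g2 libraries differed by more than 2-fold and g2 1 lay within the gCtl range, so that the g2 call (-0.91 ± 0.33, edgeR adjusted p = 0.0496) was lost without g2 2 (-0.35, adjusted p = 0.477) and also without gCtl 1, gCtl 2, gCtl 3 or gCtl 4. FADS1 stood at 106, 147, 109, 119 and 107 CPM in gCtl, at 90.7, 77.01 and 52.6 CPM in g1 and at 93.96 and 91.7 CPM in g2. All guide libraries of FADS1 lay below all gCtl libraries, and the call with g1 (-0.68 ± 0.18, adjusted p = 0.0128), which was lost without g1 3 (-0.50, adjusted p = 0.0658), was not made with g2 (-0.34 ± 0.20, adjusted p = 0.219). ACSS2, ELOVL5 and ELOVL6 were not called, with log2 fold changes of -0.42, -0.47 and 0.24 with g1 and -0.16, 0.34 and 0.55 with g2, so the elongase ELOVL6 went the other way from FASN in value. FADS2 rested on 3 to 14.7 counts per library and no change could be read at that depth.

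The branches were set side by side by their counts and medians, without a test, since the members were chosen with earlier results of these data known. With g1, 4 of 18 sterol genes and 2 of 8 fatty acid genes were lower, with medians of -0.16 and -0.51, and with g2, 6 of 18 and 4 of 8 were lower, with medians of -0.16 and -0.52. Per library, the mean log2 CPM of the fatty acid branch was 0.25, 0.31 and 0.73 below the gCtl mean in g1 and 0.16 and 0.77 below it in g2, and gCtl libraries ranged from 0.20 below to 0.11 above. For the sterol branch the libraries were 0.09, 0.28 and 0.60 below in g1 and 0.11 and 0.56 below in g2, with gCtl from 0.23 below to 0.16 above. Both branches were thus lowest in g1 3 and g2 2, and g2 1 lay within the gCtl range of each branch. Taken within a library, the fatty acid branch minus the sterol branch was -0.16, -0.03 and -0.13 in g1 and -0.05 and -0.21 in g2, against -0.06 to 0.04 in gCtl, so that 2 of the 5 guide libraries lay within the gCtl range.

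**Figure D3:**
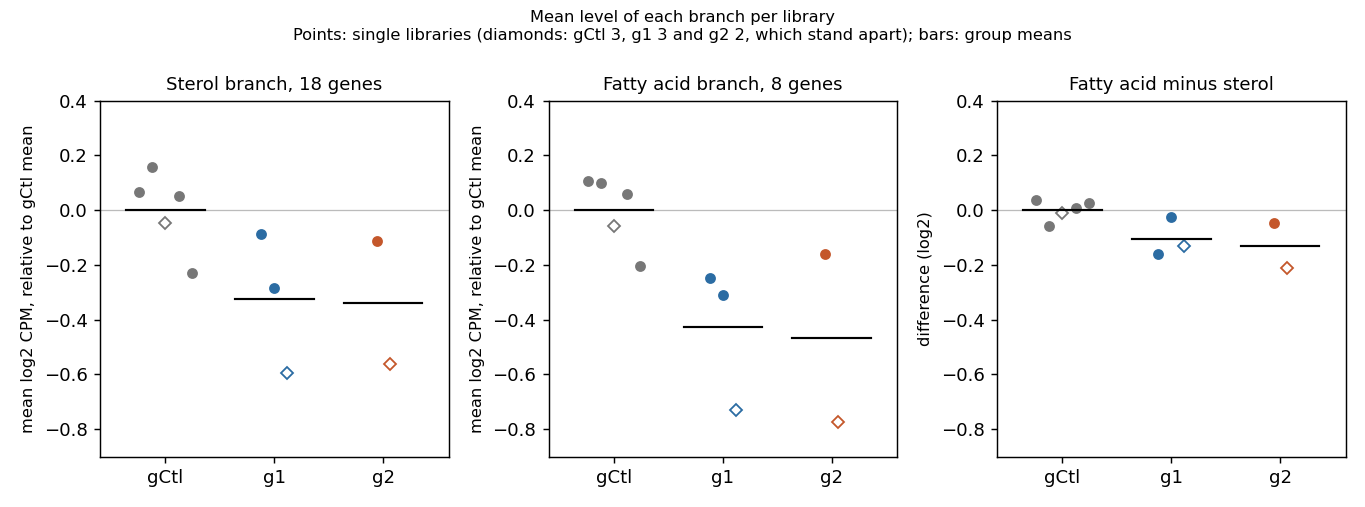
Mean log2 CPM of the 18 sterol genes and the 8 tested fatty acid genes in each library, relative to the gCtl mean (y axes, log2), and the difference between the branches, with bars for group means and diamonds for gCtl 3, g1 3 and g2 2. The diamonds of g1 and g2 are the lowest points of both branches, at -0.60 and -0.56 for sterol genes and -0.73 and -0.77 for fatty acid genes.

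Library g1 3 was the lowest of its group for 22 of the 32 members and g2 2 for 26, while gCtl 3, which shares their higher count of detected genes, was the lowest control for 5. Over all tested genes the shares were 35.2%, 50.8% and 15.9%. With the 3 libraries left out, 5 members stayed lower (SCAP, FDPS, DHCR7, EBP and ACLY) and HMGCS1 stayed higher in the libraries labelled knockdown, and 5 stayed lower with g1 (SCAP, FDPS, DHCR7, EBP and MVD). With g2, which then rested on g2 1 alone, 3 were lower (SCAP, DHCR7 and FASN) and 4 were higher (HMGCS1, IDI1, SC5D and INSIG2). With the library set as a covariate the counts were 9 lower and 1 higher for both guides together, 6 lower with g1, and 11 lower and 1 higher with g2. Of all 11640 tested genes, 1929, 1840 and 2386 were called in these fits, with 59.8%, 59.8% and 57.3% of the called genes lower, and 1049, 1329 and 1411 were called without the 3 libraries, with 58.9%, 61.6% and 57.2% lower. The part of the library set in the size of the branch differences was not tested further.

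The guides were compared with each other in the same fit. Of 32 members, 1 was lower and 1 was higher in g2 than in g1, where 4.98% of all tested genes were called, 3.42% as lower and 1.56% as higher. FASN was lower in g2, at 70.9 ± 1.33 CPM (SD, n = 2) against 119.6 ± 19.6 (n = 3), a log2 fold change of -0.75 ± 0.19 (edgeR adjusted p = 0.0342). MVD was higher in g2, at 15.3 ± 1.92 against 8.51 ± 1.33 CPM, a log2 fold change of 0.84 ± 0.23 (adjusted p = 0.0498). In neither gene did the g1 and g2 libraries overlap, and over the 32 members g2 lay wholly below g1 in 3 and wholly above in 4, against 17.3% and 15.6% of all tested genes. The FASN call was lost without g1 1, g1 2, g2 1 or g2 2 (-0.75 to -0.64, adjusted p of 0.0731 to 0.125), and the MVD call without any of the 5 libraries (0.71 to 0.98, 0.0582 to 0.144). SCAP, DHCR7, EBP, FDPS and ACLY, lower with each guide, were not called between the guides, with log2 fold changes of -0.59, -0.55, -0.39, -0.17 and -0.39 and SEs of 0.33, 0.34, 0.30, 0.49 and 0.23.

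The transcripts behind the counts differed among members. At least 90% of the counts fell on protein-coding transcripts in every library for 15 members, among them DHCR7, ACLY, LSS, SQLE, SCD and HMGCS1, and under 50% in every library for 7 (ACSS2, EBP, FDFT1, FDPS, HSD17B7, SREBF2 and TM7SF2). FDPS had 21 annotated transcripts, of which 8 were protein-coding and 0 of these had a count in any library. The leading one was ENST00000490140.1, annotated as a retained intron, which held 74.3%, 80.0%, 81.0%, 82.2% and 25.6% of FDPS counts in gCtl, 0%, 20.4% and 0% in g1 and 0% and 0% in g2. An exon of FDPS shares 258 bases with RUSC1-AS1 on the opposite strand, and whether the counting used strand is not given in the sources used here, so reads of the pair cannot be told apart. RUSC1-AS1 stood at 113 ± 24.1 CPM in gCtl, 156 ± 4.40 in g1 and 118 ± 29.4 in g2, and the sum of FDPS and RUSC1-AS1 overlapped between the groups, with a log2 ratio of 0.12 between the knockdown and the gCtl means. FDPS, at a mean of 23.1 CPM in gCtl, was smaller than the SD of that sum in gCtl, 31.2 CPM. The sum also covers both genes whole, not the shared bases alone, so it cannot show whether FDPS changed. With 0 counts on protein-coding transcripts, the FDPS values describe counts on transcripts that are not annotated as protein-coding.

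HMGCS1 shares 372 bases with CTD-2636A23.2 on the opposite strand. That gene stood at 140.3 ± 23.6 CPM in gCtl, 120.8 ± 18.2 in g1 and 135 ± 42.5 in g2, and the sum of the pair had a log2 ratio of 0.19, against 0.61 for HMGCS1 alone. The groups overlapped in the sum. That sum covers both genes whole and carries the spread of both, so its overlap does not decide whether HMGCS1 changed. Of the HMGCS1 counts, 95.1% to 98.9% were on protein-coding transcripts. For the protein-coding transcripts alone, SCAP was at 18.4 ± 2.45 CPM in gCtl and 5.13 ± 1.94 in the libraries labelled knockdown (SD, n = 5 each), DHCR7 at 114 ± 14.7 and 48.5 ± 19.7, ACLY at 109 ± 18.1 and 64.4 ± 15.4 and ACACA at 60.4 ± 8.35 and 31.4 ± 5.20, all without overlap and without a test. Of the EBP counts, 82.0% to 98.1% were on ENST00000276096.10, annotated as a processed transcript. Its protein-coding transcripts had 1.87 to 9.18 counts per library and overlapped, at 0.64 ± 0.29 CPM in gCtl and 0.79 ± 0.55 in the libraries labelled knockdown. Of the FDFT1 counts, 2.40% to 14.55% were on protein-coding transcripts, which overlapped at 7.65 ± 5.29 and 4.78 ± 3.20 CPM. The EBP and FDFT1 calls thus describe mostly counts on transcripts not annotated as protein-coding. FASN, LSS and PMVK overlapped on protein-coding transcripts as they did over all transcripts, and all PMVK counts were on protein-coding ones. Of the MVD counts, 7.70% to 88.4% were on protein-coding transcripts. On these MVD was at 2.82 to 15.5 CPM in gCtl, 0.55 to 4.11 in g1 and 10.35 to 12.2 in g2. There g1 did not lie wholly below gCtl, since gCtl 5 was at 2.82 CPM. HSD17B7 has a copy, HSD17B7P2, with a mean of 23.5 counts against 88.3 for the gene, and reads shared by both may be split between them.

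CYP51A1, the demethylase that acts on lanosterol, was not called in sum (-0.05 ± 0.18, edgeR adjusted p = 0.873) but differed between groups in the make-up of its transcripts. Its leading transcript ENST00000003100.12 held 90.3%, 77.6%, 85.2%, 90.1% and 55.8% of the counts in gCtl, 40.4%, 42.9% and 42.5% in g1 and 48.2% and 36.7% in g2. All guide libraries lay below all gCtl libraries. Counts were higher on ENST00000450723.5, with 53.4 to 181 counts per gCtl library and 217 to 498 per guide library, and overlapped on ENST00000422867.1, with 5.22 to 77.3 and 64.3 to 215. All 3 are annotated as protein-coding. Of 29 members with at least 20 counts in every library and more than 1 transcript, FDPS and CYP51A1 were those whose leading share did not overlap, both lower, where 3.17% of 7677 genes were lower and 3.22% higher in this way. The shares are Kallisto's estimates from reads near the 3′ end, and no test was made of them.

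**Figure D4:**
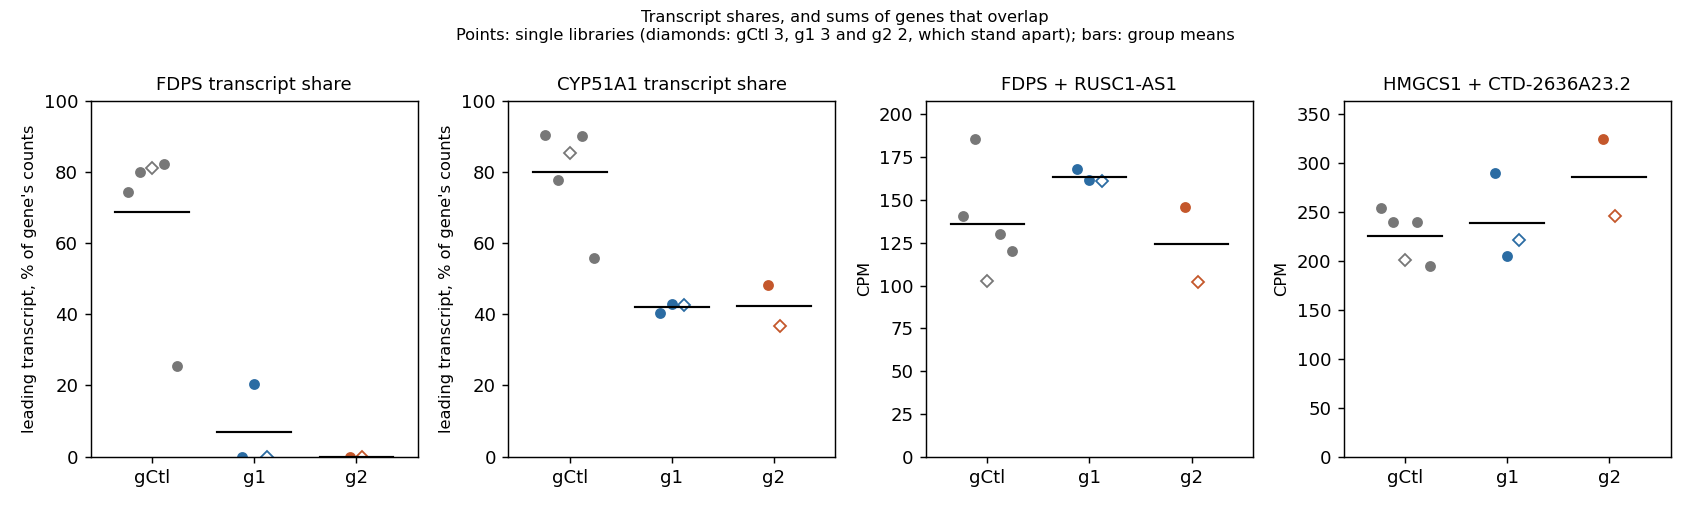
Left pair, share of the leading transcript of FDPS and CYP51A1 in percent of the gene's counts (y axes from 0 to 100). Right pair, summed CPM of FDPS with RUSC1-AS1 and of HMGCS1 with CTD-2636A23.2, by library and group, with bars for group means and diamonds for gCtl 3, g1 3 and g2 2. The shares of CYP51A1 stay at 48.2% or less in the guide libraries and at 55.8% or more in gCtl. The summed pairs overlap between groups, but they cover whole genes, so the overlap does not decide whether FDPS or HMGCS1 changed.

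Other genes of the pathways were taken from lists that were likewise made with earlier results known. Of 26 tested other sterol genes (of 29 listed), 3 were lower and 0 higher in the libraries labelled knockdown and likewise with each guide, near the 11%, 9.94% and 13% of all tested genes that were lower over both guides, with g1 and with g2. Of 27 tested other fatty acid genes (of 30 listed), 3 were lower and 0 higher over both guides, 3 lower and 1 higher with g1 and 4 lower and 3 higher with g2, beside the same shares of lower genes and 8.14%, 6.81% and 10.7% of all tested genes that were higher. ACOT7, a thioesterase of long-chain acyl-CoA, was lower with each guide (-1.81 ± 0.30 and -2.07 ± 0.36, adjusted p = 0.000910 and 0.0009), as was SLC25A1, the carrier that exports citrate from mitochondria ahead of ACLY (-0.92 ± 0.21 and -0.90 ± 0.25, adjusted p = 0.00701 and 0.0147). GPAM, the first acyltransferase of glycerolipid synthesis, was higher with g1 (0.84 ± 0.18, adjusted p = 0.00517) and lower in g2 than in g1 (-0.95 ± 0.24, adjusted p = 0.0324), at 83.7, 93.7 and 57.5 CPM in g1 and 40.9 and 39.8 in g2, against 33.7 to 55.3 in gCtl.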

How the data were processed

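RNA from 10 Caco-2 samples was sequenced from the 3′ end (QuantSeq, poly(A), single-end). The authors deposited estimated counts per transcript, made with Kallisto against GENCODE transcripts (GRCh38); whether strand was used is not given in the sources used here. The estimated counts were summed per Ensembl gene identifier and rounded to whole numbers. Protein-coding genes above 3 RPM in at least 20% of libraries were tested with edgeR 4.0.16 (TMM, quasi-likelihood, two-sided; R 4.3.3), once for both guides against gCtl and once with 3 groups, over all 11640 genes, with Benjamini-Hochberg adjustment. Calls needed an adjusted p no higher than 0.05 and a change of 1.5-fold or more. CPM are TMM-normalized, and RPM use library totals. The fits were tested on simulated data.

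Groups came from the labels, which number no replicates, and the library numbers used here only tell libraries apart. Replicate pairs differed by more than sampling noise (chi-square per degree of freedom 4.29 to 26.1 in 14 pairs), so no library was merged. Depth was 3838803 to 8730468 estimated counts, which limits genes of few counts. Alternatives were DESeq2 1.42.0, limma 3.58.1 on log2(value + 1) of RPM and TPM, other scalings, filters and thresholds, and leaving out each library. A covariate for the 3 libraries that stand apart, and leaving them out, were chosen after seeing the data. The members and lists were chosen with earlier results of these data known. Named were all 33 members, and other pathway genes called in the same direction with each guide or between guides, apart from an item that is not reported here; library values are given for members called in any comparison. Gene coordinates are from GENCODE annotation (GRCh38), and promoters from RefSeq (GRCh38.p14). Tables were joined in Python 3.11.15 with pandas 2.3.3 and plotted with matplotlib 3.10.9.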

Additional observations from a re-analysis of the deposited data

Results flagged for a closer look

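In groups of 5 libraries, a single library lay far from the others by Dixon's 95% criterion in 7 of 66 groups of member values, where chance gives about 1 in 20. Among the libraries labelled knockdown, g2 1 was far above the rest for IDI1 (86.1 CPM), SC5D (108 CPM), ACSS2 (12.2 CPM) and ELOVL5 (12.9 CPM). Among the gCtl libraries, gCtl 1 was far above the rest for INSIG1 (60.2 CPM) and INSIG2 (7.25 CPM), and gCtl 5 was far below the rest for SCD (188 CPM).

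By edgeR's test of the difference itself, g2 against g1 was called for MVD and for FASN. The log2 fold changes were 0.84 and -0.75 (edgeR adjusted p = 0.0498 and 0.0342). MVD kept its call under 4 of 17 alternatives and FASN under 11 of 17.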

How the results depend on the processing

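SCAP and FDPS kept their calls with both guides together and with g1 under every alternative run, as did SCAP, DHCR7 and FASN with g2; 9 of 11, 5 of 7 and 9 of 12 called members lost theirs under at least 1, as did both members called between the guides. No paired analysis was possible because the labels give no replicate numbers that the groups share. Without 1 g2 library, the lone one is assumed to vary like the other groups.

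With glmTreat, members called numbered 2 over both guides, 2 with g1, 5 with g2 and 0 between guides, and all genes 488, 506, 802 and 92. Without the 3 libraries that stand apart, 6 members (1049 genes) were called over both guides and 7 (1411 genes) with g2, with fatty acid medians of -0.39 and -0.34. Between guides 1 member was called with library totals, filterByExpr, no filter, limma on RPM or the covariate. With limma on TPM 0 were called, and MVD reversed (-0.075, adjusted p = 0.898). The cause of the reversal was not tested. By limma on TPM, MVD was also called lower with g2 against gCtl (-0.69, adjusted p = 0.0322).

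The sterol median over both guides was -0.22 with limma on RPM and -0.27 on TPM, where the fatty acid median was -0.40. With g2 the sterol median was -0.32 with library totals, -0.34 with limma on RPM and -0.40 on TPM, and the fatty acid median -0.68 with library totals, -0.67 with limma on RPM, -0.34 with filterByExpr and -0.35 with no filter. Between guides the fatty acid median was 0.25 with filterByExpr and 0.25 with no filter, and the sterol median -0.18 with limma on TPM. FADS2 enters where the filter is loosened.

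Leaving out single libraries, members called ranged from 8 to 12 over both guides, 4 (without g1 3) to 9 with g1, 6 (without g2 2) to 13 with g2 and 0 to 4 between guides. All genes called ranged from 1703 to 2430, 1252 to 2262, 1503 to 3127 and 266 to 865. Fatty acid medians ranged from -0.62 to -0.49, -0.59 to -0.43, -0.85 to -0.33 and -0.31 to 0.30, and sterol medians from -0.26 to -0.0098, -0.38 to -0.12, -0.31 to -0.12 and -0.26 to 0.27.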
